A study of Mus musculus with 7 samples.

Results

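The transcripts of 10 desmosome genes were measured in single keratinocytes of mouse ear epidermis 3 weeks after bone marrow transplantation (BMT). The genes were chosen by symbol: the desmogleins Dsg1a, Dsg1b and Dsg3, the desmocollins Dsc1, Dsc2 and Dsc3, and the plaque genes Dsp (desmoplakin), Pkp1 and Pkp3 (plakophilins) and Jup (plakoglobin). All 10 were listed among the 26383 genes of the keratinocyte table, which holds 5426 cells. Desmosomes are spot-shaped junctions that bind keratinocytes to one another. Desmogleins and desmocollins, cadherins that span the membrane, meet their partners in the gap between cells, and plakoglobin and the plakophilins link their tails to desmoplakin, which holds the keratin filaments. In stratified epidermis the cadherins are exchanged as cells leave the basal layer: Dsg3 and Dsc3 are known for the lower layers, and Dsg1 and Dsc1 for the upper ones. Dsg1 and Dsg3 are also the targets of autoantibodies in pemphigus, a blistering disease of the skin.

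The hosts, male C57BL/6 mice carrying CD45.2, had been lethally irradiated and then given bone marrow of female CD45.1 C57BL/6 donors. The keratinocytes were sorted as CD45- cells from dispersed epidermis, with cells of several mice pooled, and gave 1 library labelled BMT and 1 labelled BMT plus T-cells (BMT + T cells here). The series' own design text describes T cells as part of the transplant, both CD4 cells and CD8 cells of the Matahari line, which recognise a male antigen, and does not set a group without T cells apart, so the comparison below is between the 2 labels. The BMT library held 2836 cells and 27817737 unique molecular identifiers (UMIs, counts of captured RNA molecules), and the BMT + T cells library 2590 cells and 24959785 UMIs. Median depth was 8895.5 and 8834 UMIs per cell. Only 2 cell barcodes occurred in both libraries.

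The study's own annotation divided the cells into 5 clusters. Basal held 1684 and 1712 cells (BMT and BMT + T cells, the order kept throughout), Differentiated 493 and 353, Follicular 278 and 259, KC_Four 225 and 150, and KC_Five 156 and 116. Markers fitted the names. Per 10000 UMIs, Krt14 was at 396 and 379 in Basal and 109 and 108 in Differentiated, and Krt10 at 6.19 and 8.92 against 154 and 143. Krt79, a keratin of the upper hair follicle, was at 26.7 and 24.98 in Follicular and at most 0.0440 elsewhere. KC_Four was highest for Top2a (7.03 and 7.94) and KC_Five for Cdc20 (8.75 and 8.63), both genes of dividing cells. The late markers did not set Differentiated apart: Flg (filaggrin) had at most 3 UMIs in any cluster, and Lor (loricrin) was at 0.113 and 0.144 in Differentiated against 0.231 and 0.227 in KC_Four. The Follicular cluster also carried RNA of other cell types. There 4 fibroblast markers summed to 2.71 and 3.02 UMIs per 10000 and 4 melanocyte markers to 0.877 and 1.23, against at most 0.446 and 0.0674 in any other cluster. Their part in the Follicular values was looked at only by leaving out cells with a UMI of such markers, as given below.

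In GRCm38.p6 the 6 cadherin members lie in a single stretch of 580.4 kb on chromosome 18 (19960930 to 20541310). Its 8 protein-coding genes follow in the order Dsc3, Dsc2, Dsc1, Dsg1c, Dsg1a, Dsg1b, Dsg4 and Dsg3. The plaque genes lie apart, Pkp1 on chromosome 1 (135871394 to 135919207), Pkp3 on chromosome 7 (141078229 to 141090511), Jup on chromosome 11 (100368856 to 100397839) and Dsp on chromosome 13 (38151294 to 38198577). The mouse copies of Dsg1 resemble each other closely: of all stretches of 31 bases in the coding transcripts, Dsg1a shared 41.4% and Dsg1b 58.6% with other desmosome genes, mostly with one another. Reads from such stretches cannot be given to a single copy, so the separate values of Dsg1a and Dsg1b are uncertain. Dsc1 and Dsc2 shared 0.114% and 0.0918%, and the remaining 6 members none.

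Levels are UMIs per 10000 UMIs of the cluster and library, with exact Poisson 95% intervals. They are compared within a gene and not between genes, because UMIs from the 5′ end of transcripts are captured and counted with unequal success. Sums and shares over several genes carry this inequality and are compared between clusters and libraries only. In them Dsp (47617 UMIs) and Dsc3 (37391) weigh most and Dsc2 (108) least. Ctnnb1 (β-catenin), which keratinocytes use throughout, was listed at no more than 0.225 UMIs per 10000 in any cluster, so a low value here does not mean a weakly used gene. Ratios carry conditional exact 95% intervals. These intervals cover counting error only. With 1 library per label, and clusters that the study built from the same values, no test was possible, and a gene was called when it passed a set fold in both libraries, among genes with at least 50 UMIs over the groups compared in each.

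**Figure D1:**
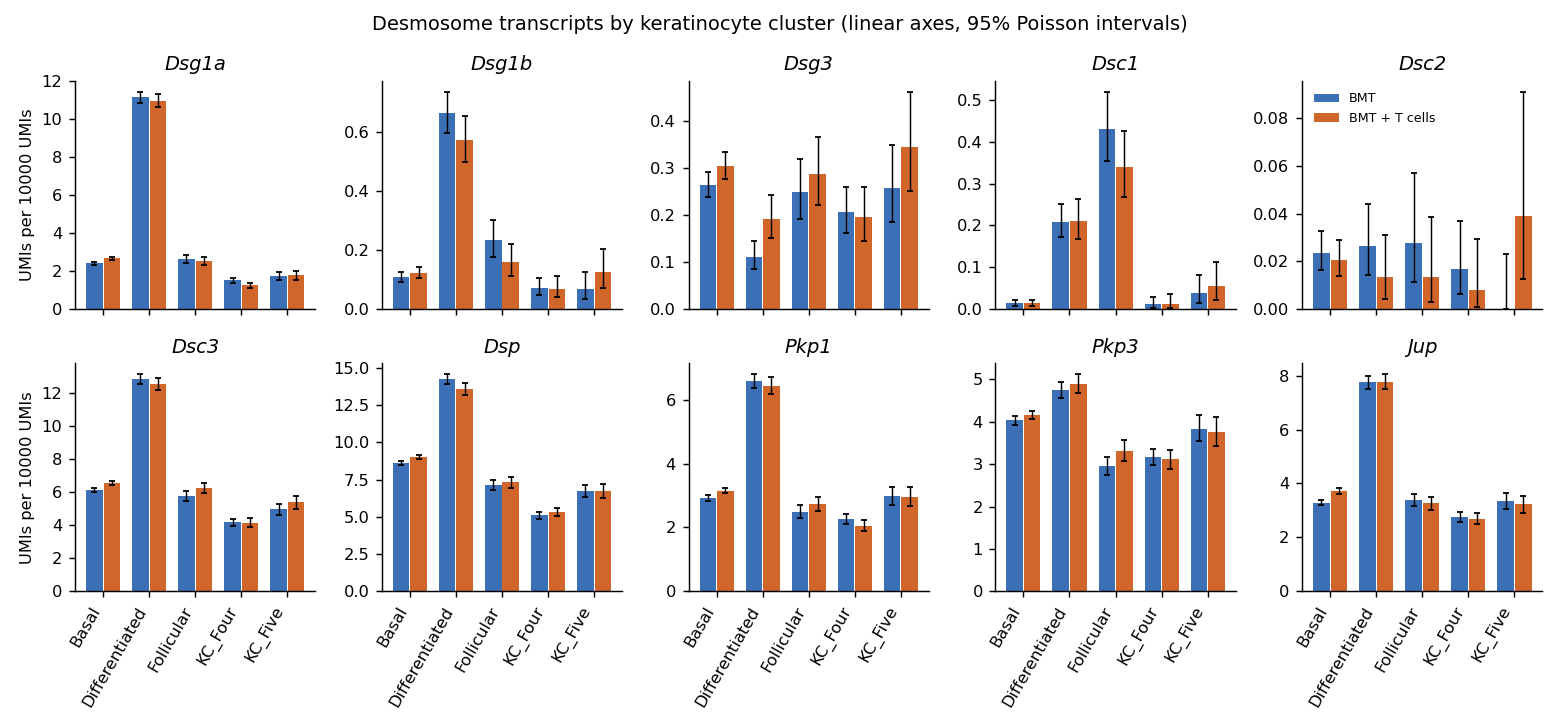
UMIs per 10000 UMIs of each desmosome gene (linear axes that differ between panels) in the 5 keratinocyte clusters, with bars for the BMT and BMT + T cells libraries and exact Poisson 95% intervals. Differentiated has the highest bars for 7 genes in both libraries, Dsc1 is highest in Follicular, Dsg3 is lowest in Differentiated (in BMT + T cells level with KC_Four), and Dsc2 is near 0 throughout.

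Summed over the 10 members, the Differentiated cluster held about double the desmosome UMIs per 10000 of the Basal cluster. The 10 members together made up 27.8 (27.5–28.0) and 29.7 (29.4–30.0) UMIs per 10000 in Basal and 58.3 (57.6–58.9) and 57.1 (56.4–57.9) in Differentiated. Follicular (25.3 and 26.2), KC_Five (23.9 and 24.3) and KC_Four (19.3 and 18.8) lay below Basal. This order was the same in both libraries, and the values of Differentiated stood clear of all others. In Differentiated, 5 members were called at least 2-fold higher than in Basal (Dsg1a, Dsg1b, Dsc1, Pkp1 and Jup), against 3.47% of the 9758 genes compared. None was called lower, against 8.35%. Of the 10 members 9 passed the filter on UMIs, Dsc1 only through its Differentiated UMIs, and Dsc2 did not pass. Their median log2 ratio was 1.17 and 1.03, against −0.14 and −0.12 over all genes.

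The desmogleins moved apart. Dsg1a was at 2.41 (2.34–2.49) and 2.67 UMIs per 10000 in Basal and at 11.1 (10.9–11.4) and 10.97 in Differentiated, a ratio of 4.62 (4.43–4.81) and 4.11 (3.94–4.30). Dsg1b was at 0.107 and 0.122 in Basal and 0.662 and 0.573 in Differentiated, a ratio of 6.18 (5.11–7.50) and 4.71 (3.85–5.76). Both were called higher, and in neither did the Basal and Differentiated intervals overlap. Dsg3, the desmoglein of the lower layers, went the opposite way. It was at 0.264 (392 UMIs) and 0.304 (462 UMIs) in Basal and at 0.111 (59 UMIs) and 0.192 (72 UMIs) in Differentiated, a ratio of 0.421 (0.315–0.555) and 0.631 (0.485–0.811). Both intervals lay below 1, but Dsg3 missed the 2-fold line in BMT + T cells and was not called. Dsg3 accordingly took 9.48% (8.61–10.4) and 9.83% (8.99–10.7) of the desmoglein UMIs in Basal and 0.934% (0.711–1.20) and 1.63% (1.28–2.05) in Differentiated, with exact Clopper-Pearson intervals. In KC_Four and KC_Five its share was 11.5% to 15.3%, and in Follicular 8.02% and 9.70%.

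Among the desmocollins, Dsc1 was nearly missing from Basal and Dsc3 was found in all clusters. Dsc1 was at 0.0135 and 0.0132 UMIs per 10000 in Basal, with 20 UMIs in each library. It was at 0.209 and 0.210 in Differentiated, a ratio of 15.5 (9.59–26.4) and 16.0 (9.70–27.6), and at 0.431 and 0.340 in Follicular, a ratio of 32.0 (19.7–54.4) and 25.9 (15.7–44.7). Dsc1 was thus the member with the widest range between clusters, and its highest level was outside Differentiated. Dsc3 was at 6.12 and 6.55 in Basal and 12.8 and 12.5 in Differentiated. Its ratio of 2.10 (2.03–2.16) and 1.91 (1.85–1.98) lay on both sides of the 2-fold line, just outside the call. Dsc1 took 0.219% and 0.200% of desmocollin UMIs in Basal, 1.60% and 1.65% in Differentiated and 6.91% and 5.16% in Follicular. Dsc2, better known from simple epithelia and heart, had 62 and 46 UMIs in each whole library, and no order of the clusters could be read from it. In KC_Five of the BMT library it had none, which allows 3 UMIs.

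The plaque genes were graded. Jup was at 3.29 and 3.72 UMIs per 10000 in Basal and 7.75 and 7.77 in Differentiated, a ratio of 2.36 (2.26–2.46) and 2.09 (1.99–2.18). Pkp1 was at 2.92 and 3.16 against 6.58 and 6.43, a ratio of 2.26 (2.16–2.36) and 2.04 (1.94–2.14), just inside the call. Dsp, the keratin anchor, was at 8.60 and 9.01 against 14.2 and 13.6, a ratio of 1.66 (1.61–1.70) and 1.51 (1.46–1.55), and was not called. Pkp3 differed least, at 4.03 and 4.16 against 4.74 and 4.89, a ratio of 1.18 (1.12–1.23) and 1.18 (1.12–1.24). All 4 plaque genes were therefore higher in Differentiated, by unequal factors. The balance of the plakophilins shifted with them: Pkp1 took 42.0% (41.0–42.9) and 43.2% (42.2–44.1) of the UMIs of Pkp1 and Pkp3 in Basal and 58.1% (56.9–59.4) and 56.8% (55.3–58.3) in Differentiated. Desmogleins took 31.1% and 32.0% of the UMIs of the 6 cadherins in Basal and 47.7% and 47.9% in Differentiated.

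Several calls depend on the scale or the depth. Scaling by median-of-ratios size factors in place of total UMIs moved every Differentiated ratio up by 0.14 to 0.15 on the log2 scale, and Dsc3 was then called too. Leaving mitochondrial and keratin genes out of the scale, or the 20 genes with the most UMIs, left 4 of the 5 calls, without Pkp1, as did the mean over cells in place of the sum. With each cell thinned to 2500 UMIs only Dsg1a and Dsg1b were called, against 192 of 7408 genes. Pkp1 and Jup missed the fold and Dsc1 the filter. The directions of the members past the filter in Differentiated held under all of these.

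**Figure D2:**
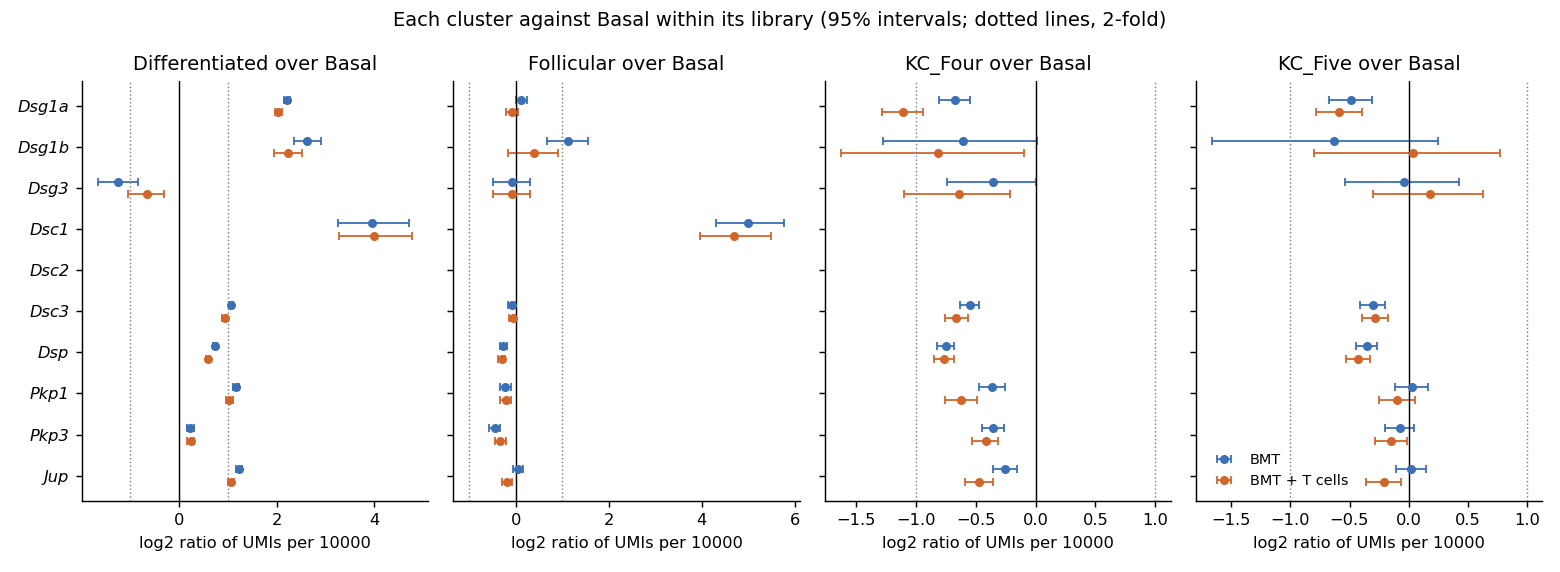
Log2 ratio of UMIs per 10000 in each cluster over Basal, within each library, for the members past the filter (points with conditional exact 95% intervals, dotted lines at 2-fold). In Differentiated, Dsg1a, Dsg1b, Dsc1, Pkp1 and Jup lie right of the 2-fold line in both libraries and Dsg3 lies left of 0. In Follicular only Dsc1 is past the line in both, and in KC_Four all points lie left of 0.

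The RefSeq promoter table (GRCm38.p6) matched 2 of the 10 members, Dsp and Jup, and their upstream sequence is shown because both were higher in Differentiated. The 200 bases before the start site in that table were searched on both strands for AACCNGTT (the grainyhead or GRHL motif), TGANTCA (AP-1) and GGGNGGG (the GC-rich motif of KLF and SP factors). Matches are in capitals. Dsp lies at chr13:38151094-38151293 on the plus strand and Jup at chr11:100397791-100397990 on the minus strand. The Jup start in the table lies within the gene's outer bounds, so 49 bases of that window are inside the gene as given above.
Dsp: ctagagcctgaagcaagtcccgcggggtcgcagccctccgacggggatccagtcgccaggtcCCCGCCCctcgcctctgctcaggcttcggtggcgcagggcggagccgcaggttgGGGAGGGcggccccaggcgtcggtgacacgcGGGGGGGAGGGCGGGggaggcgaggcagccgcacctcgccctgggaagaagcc
Jup: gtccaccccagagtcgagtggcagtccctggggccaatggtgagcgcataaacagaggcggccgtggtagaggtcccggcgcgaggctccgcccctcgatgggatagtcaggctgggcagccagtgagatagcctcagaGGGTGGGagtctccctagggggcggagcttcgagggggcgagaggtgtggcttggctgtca

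The Dsp window held 5 matches, all of GGGNGGG or its reverse, of which 3 overlap between 53 and 39 bases before the start. The Jup window held 1 match of the same motif. Of 32851 mouse promoter windows of this length, 41.6% held that motif, 5.48% held TGANTCA and 1.45% held AACCNGTT, and neither of the latter occurs in these 2 windows. G and C made up 75.5% of the Dsp window and 66.5% of the Jup window, against a median of 53% over all. A match describes the letters only.

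A graded course was seen when the cluster borders were set aside. Basal and Differentiated cells of each library were sorted by log2 of (Krt1 + Krt10 + 1 UMIs) over (Krt5 + Krt14 + 1 UMIs), which uses no desmosome gene, and divided into 10 bins of 206 to 218 cells. The exchange of these keratins marks the step from the basal to the spinous layer. Median depth also differed along the order, at 9445 and 9846 UMIs in bin 1, 7233.5 and 7069 in bin 6 and 10551 in bin 10 of both libraries. The part of depth in the order of the Basal cells was not tested. Dsg1a was at 1.51 and 1.39 UMIs per 10000 in the first bin, 3.28 and 3.60 in bin 7 and 14.1 and 12.6 in the last, 9.38-fold (8.39–10.5) and 9.09-fold (8.10–10.2) above the first. In bin 7 only 4.13% and 1.46% of cells were annotated as Differentiated, so Dsg1a already differed within cells called Basal. Dsc3 was at 5.01 and 4.68 in the first bin, 7.48 and 8.002 in bin 7 and 14.2 and 13.1 in the last. Jup (2.82 and 2.90, then 4.06 and 4.14, then 8.70 and 8.17) and Pkp1 (2.39 and 2.46, then 3.60 and 3.72, then 7.18 and 6.89) ran alike.

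The low-count cadherins differed in where along this order they changed. Dsg1b had 8 and 10 UMIs in the first bin and 204 and 147 in the last, a ratio of 24.0 (11.9–56.3) and 15.7 (8.32–33.5). With 5 bins in place of 10 it was 9.02 (6.33–13.3) and 12.1 (7.68–20.3), so the size rests on the bin width. Dsc1 stayed at or below 0.0326 through bin 8 and was at 0.0982 and 0.112 in bin 9 and 0.361 and 0.271 in bin 10. Dsc1 was thus the latest of the members to appear, and 87 of its UMIs in the BMT library came from the last bin against 3 from the first. Dsg3 was highest in bin 6 (0.325 and 0.366) and lowest in bin 10 (0.0830 and 0.133), where it was at 0.294 (0.169–0.492) and 0.554 (0.341–0.883) of the first bin. With 5 bins these were 0.504 (0.360–0.700) and 0.848 (0.636–1.13), and the second interval held 1. The libraries differed between these points: in bins 7 to 9 Dsg3 was at 0.204, 0.174 and 0.165 in BMT and at 0.357, 0.343 and 0.325 in BMT + T cells. Fewer cells of bin 9 were annotated as Differentiated in BMT + T cells (57.8%) than in BMT (92.2%), and the part of this in the Dsg3 values was not tested. Dsp (2.12 and 1.89 from first to last bin) and Pkp3 (1.26 and 1.26) had the flattest courses among the plaque genes.

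**Figure D3:**
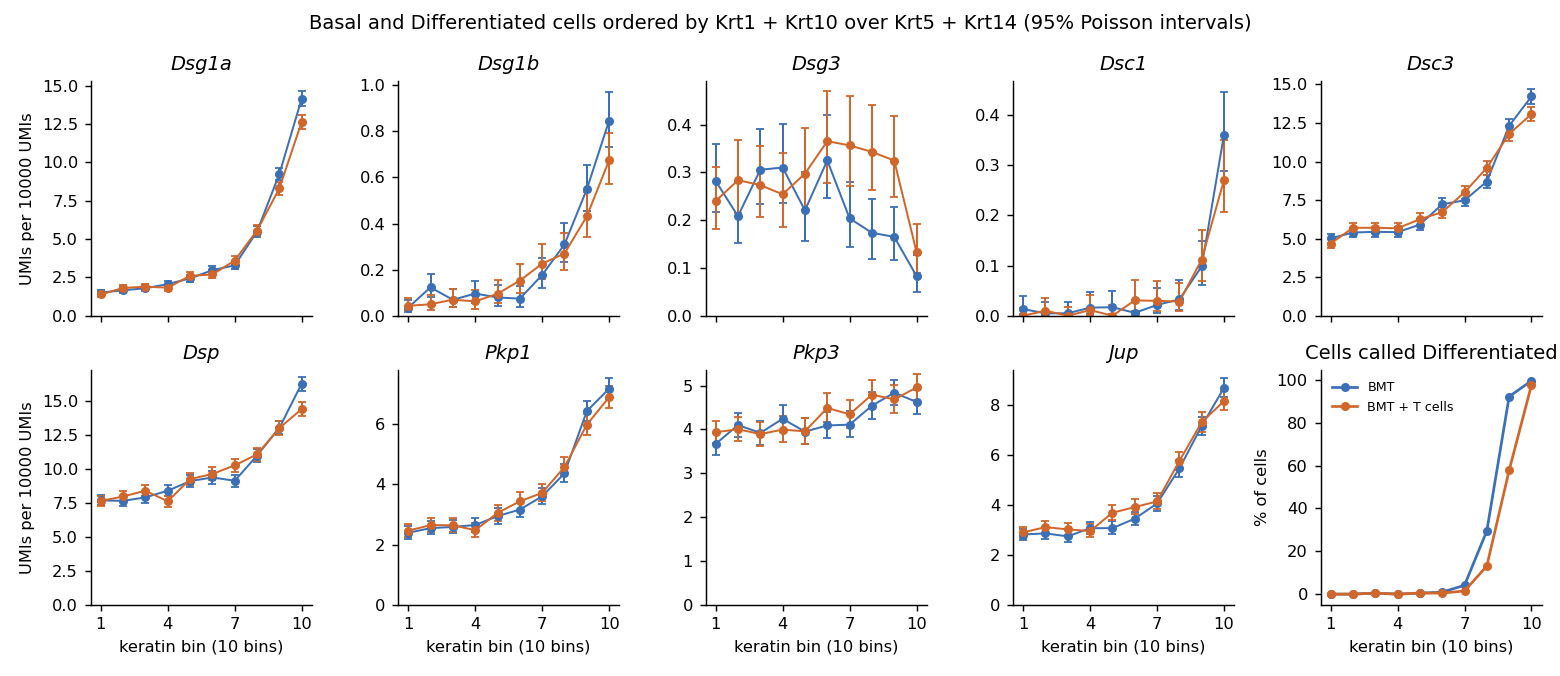
UMIs per 10000 UMIs (linear axes from 0, exact Poisson 95% intervals) of 9 desmosome genes in 10 bins of Basal and Differentiated cells, ordered from basal to suprabasal keratins, in each library. The last panel gives the percent of cells annotated as Differentiated, near 0 up to bin 6. Dsg1a, Dsc3, Pkp1 and Jup are highest in bin 10, Dsc1 is at or below 0.0326 through bin 8, and Dsg3 is lowest in bin 10.

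In Follicular, Dsc1 was the only member called higher than in Basal, against 6.01% of 9767 genes. It passed the filter only through its Follicular UMIs (109 and 77), and the call was lost at a minimum of 200 UMIs and when cells were thinned to 2500 UMIs, both of which put it under the filter. None was called lower, against 2.87%. Over the whole cluster the plakophilins and Dsp were below Basal. Their ratios were 0.857 and 0.862 for Pkp1, 0.730 and 0.797 for Pkp3 and 0.830 and 0.810 for Dsp. All of these intervals lay below 1. Dsg1a (1.09 and 0.944), Dsg3 (0.943 and 0.946) and Dsc3 (0.945 and 0.954) were near Basal, and each moved to the other side of 1 in a library under some other setting, as did Jup (1.03 and 0.877). Dsg1b was at 2.18 (1.59–2.95) and 1.31 (0.889–1.88) times Basal. The Dsc1 call thus stood alone in this cluster. Without the 374 cells of the table with a UMI of a fibroblast, melanocyte, endothelial or Merkel cell marker, Dsc1 was again the single call. The Follicular log2 ratios then moved by −0.061 to 0.204, with a median of 0.110. Pkp1, Pkp3 and Dsp stayed below Basal.

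Dsc1 was also unevenly spread over the Follicular cells. Its UMIs came from 47 of 278 and 39 of 259 cells, with up to 17 and 10 in a cell. When the 92 and 86 cells with the most Krt79 were set apart, Dsc1 was at 0.168 (0.112–0.243) and 0.144 (0.0889–0.220) UMIs per 10000 in the other cells and at 0.937 (0.744–1.16) and 0.701 (0.529–0.910) in the Krt79-high cells. Of the other cells, only 10 of 186 and 4 of 173 had a Krt79 UMI. The Krt79-high cells therefore held 81 of 109 and 56 of 77 Follicular Dsc1 UMIs. Dsp was also higher there, at 9.13 and 8.28 against 6.10 and 6.77, as were Dsg1a (3.55 and 3.23 against 2.14 and 2.13) and Pkp1 (3.09 and 3.37 against 2.19 and 2.37). Their intervals did not overlap in either library, but the share of all genes set apart in this way was not counted. Dsc3 was near level, at 5.54 and 5.89 against 5.90 and 6.44, with intervals that overlapped. The fibroblast gene Dcn lay in the other cells, at 3.48 and 3.64 against 0.208 and 0.0375. The part of such RNA in the lower member levels of the other cells was not tested. Mgst1, a marker of sebaceous cells, was at 22.1 and 12.7 in the Krt79-high cells and at 4.10 and 2.89 in the others. The part of sebaceous cells in the Dsc1 values was not tested. Krt10 was no higher in the Krt79-high cells (11.7 and 10.3) than in the others (14.2 and 15.8). The Dsp and Pkp1 intervals of the Krt79-high cells overlapped those of Basal (8.60 and 9.01 for Dsp, 2.92 and 3.16 for Pkp1). Dsg1a lay above Basal there (2.41 and 2.67 in Basal). Pkp3, at 2.75 and 3.24 in the Krt79-high cells, lay below Basal (4.03 and 4.16).

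**Figure D4:**
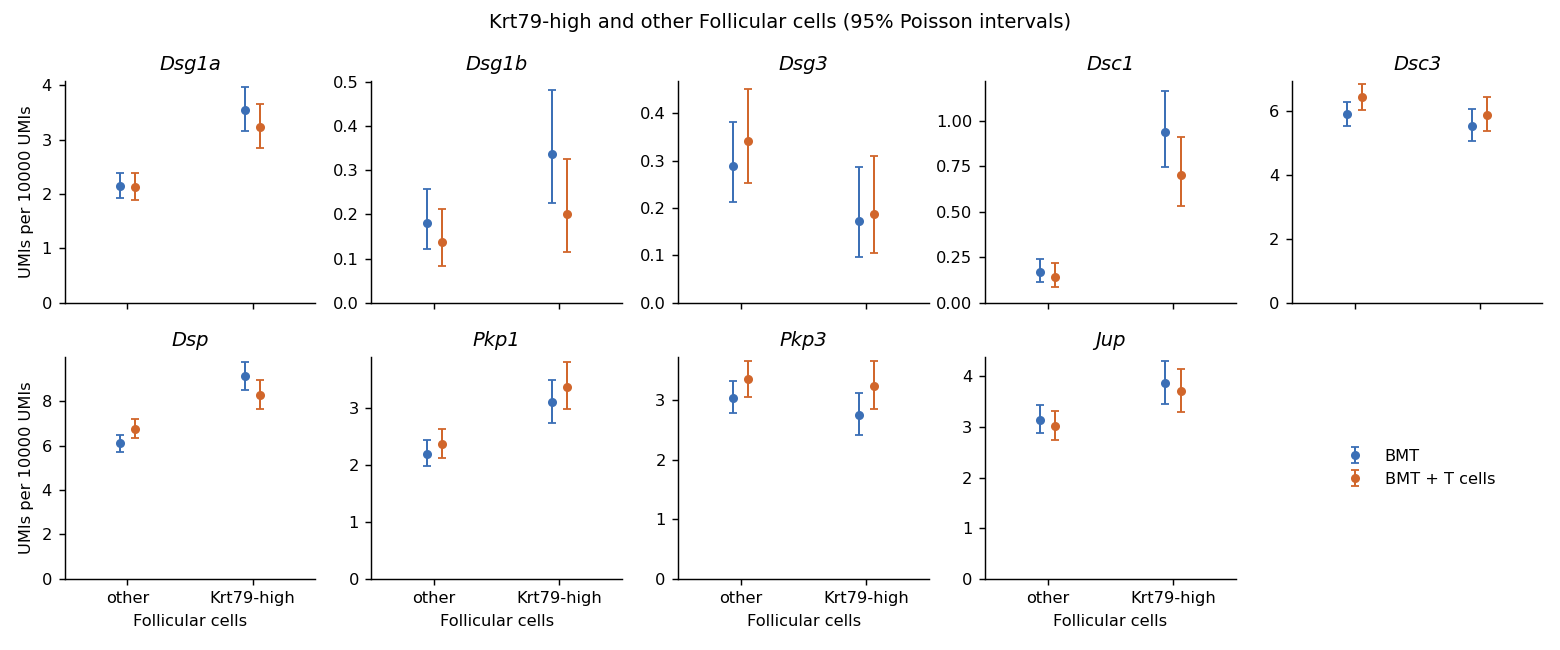
UMIs per 10000 UMIs (linear axes from 0, exact Poisson 95% intervals) of 9 desmosome genes in the Krt79-high Follicular cells and in the other Follicular cells, in each library. Dsc1 is at 0.937 and 0.701 in the Krt79-high cells and at 0.168 and 0.144 in the others, and the Dsc3 intervals overlap.

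In the cycling clusters desmosome UMIs made up a smaller share of all UMIs than in Basal, but no member passed the fold. In KC_Four none of the 8 members past the filter was called higher (5.14% of 9665 genes) or lower (3.64%). Their ratios to Basal ran from 0.465 for Dsg1a in BMT + T cells to 0.838 for Jup in BMT. The median log2 ratio of the members was −0.46 and −0.65. Over all genes it was −0.13 and −0.15, so genes in general also lay below Basal. Dsp was at 0.594 (0.566–0.624) and 0.589 (0.556–0.623), Dsc3 at 0.683 and 0.633, and Dsg1a at 0.626 and 0.465. KC_Four cells were the deepest, with medians of 15889 and 16877.5 UMIs against 8053 and 8223.5 in Basal. All members together had 6841 UMIs in 225 KC_Four cells of BMT, against 41229 in 1684 Basal cells. In BMT + T cells they had 4632 in 150 KC_Four cells, against 45186 in 1712 Basal cells. The smaller share in KC_Four thus did not mean fewer desmosome UMIs per cell. With each cell thinned to 2500 UMIs, Dsg3 in BMT no longer lay below Basal. In KC_Five none was called higher (2.76% of 9515 genes) or lower (3.54%). Its Dsg1a (0.713 and 0.665), Dsp (0.781 and 0.744) and Dsc3 (0.809 and 0.821) were below Basal, with intervals below 1. Pkp1 (1.02 and 0.936) and Dsg3 (0.976 and 1.13) had intervals that held 1. The KC_Four cells, led by Top2a, were thus farther from Basal than the KC_Five cells, led by Cdc20.

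Most keratinocytes carried the RNA of several members. With each cell thinned to 2500 UMIs, which left out no keratinocyte, a cell held UMIs of 3.84 and 3.93 members on average in Basal, 5.28 and 5.22 in Differentiated and 3.00 and 3.01 in KC_Four. Of the Follicular cells, 17 and 13 held none, 6.12% and 5.02%, against 0 in Differentiated. Dsp was found in 82.8% and 83.7% of Basal and 92.9% and 91.5% of Differentiated cells (96.9%, 96.2%, 99.2% and 97.7% before thinning), and Jup in 55.6% and 58.9% of Basal and 85.6% and 81.3% of Differentiated cells (89.2%, 89.8%, 99.2% and 98.0% before). The series' myeloid libraries, also from epidermis of transplanted mice, hold cells that should lack desmosomes. At the same depth their shares were 0.133% to 12.2% for Dsp and 2.70% to 15.7% for Jup. The higher value of each was in the host library. Whether this was carried-over keratinocyte RNA or RNA of the myeloid cells was not tested. Thinning left out 206 of 781 host cells and 47 to 1392 cells of each donor library. The common members were thus found in far larger shares of keratinocytes than of myeloid cells. Dsg3 was not so clear, with 6.65% and 6.83% of Basal and 2.64% and 5.38% of Differentiated cells. In the myeloid libraries its share was 3.48% in the host cells and at most 0.0143% in the donor cells. Its Differentiated share in BMT was thus below the host value and above the donor values. Before thinning, the Basal, Differentiated and host shares of Dsg3 were 19.4% and 21.6%, 9.74% and 17.8%, and 6.79%. Dsc1 in Basal, at 0.119% and 0.117%, was not above the 0.174% of host cells, the only myeloid value for Dsc1. In Differentiated (3.85% and 3.97%) and Follicular (8.63% and 7.72%) Dsc1 was above it (14.4%, 15.0%, 16.9% and 15.1% before thinning).

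The 2 labels differed little in desmosome RNA. On the mean over the 5 clusters with equal weights, no member was called at least 1.5-fold higher in BMT + T cells (1.81% of 10373 genes were) and none lower (1.11%). The ratio of BMT + T cells to BMT was 0.987 for Dsg1a, 1.00 for Dsp and Pkp1, 1.01 for Jup, 1.03 for Dsc3 and Pkp3, 0.918 for Dsg1b, 0.898 for Dsc1 and 1.22 for Dsg3. For Dsp, Pkp1 and Jup the side of 1 changed with median-of-ratios scaling, and for Dsg1a when cells were thinned. The labels did differ in other genes: of 7 interferon-induced genes past the filter 6 were called higher in BMT + T cells, among them Cxcl9 (6.86-fold), Cd74 (5.13-fold) and Iigp1 (4.16-fold). The 6 leukocyte markers, which include Cd74, summed to 0.535 in Basal of BMT and 2.47 in Basal of BMT + T cells. Only 2 cells of the table had a UMI of Ptprc (CD45). Without them no call changed, but so few cells could hardly move one. A UMI of a leukocyte marker was found in 18.7% (Basal, BMT) to 48.2% (Differentiated, BMT + T cells) of the cells of a cluster. The part of this RNA in the member values was not tested.

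By cluster, 37 pairs of member and cluster had at least 50 UMIs in each library. Their ratios ran from 0.790 for Dsc1 in Follicular to 1.72 for Dsg3 in Differentiated. The intervals left out 1 in 11 pairs, 9 above and 2 below, against 9.89% above and 11.8% below of 30155 such pairs over all genes. In Basal all 8 members with enough UMIs had a ratio above 1, against 51.3% of 9349 genes. They ran from 1.03 (0.995–1.07) for Pkp3 to 1.15 (1.00–1.32) for Dsg3, with Jup at 1.13 (1.09–1.18) and Dsg1a at 1.105 (1.06–1.16). The sum over the 10 members in Basal was 27.8 against 29.7. With counting error as the sole error and no second library, differences of this size cannot be told from the spread between libraries. Dsg3 in Differentiated was the only pair past 1.5-fold, at 0.111 in BMT and 0.192 in BMT + T cells, a ratio of 1.72 (1.21–2.48), resting on 59 and 72 UMIs. Its share of cells after thinning, 2.64% and 5.38%, had overlapping intervals (1.41–4.47 and 3.27–8.28).

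**Figure D5:**
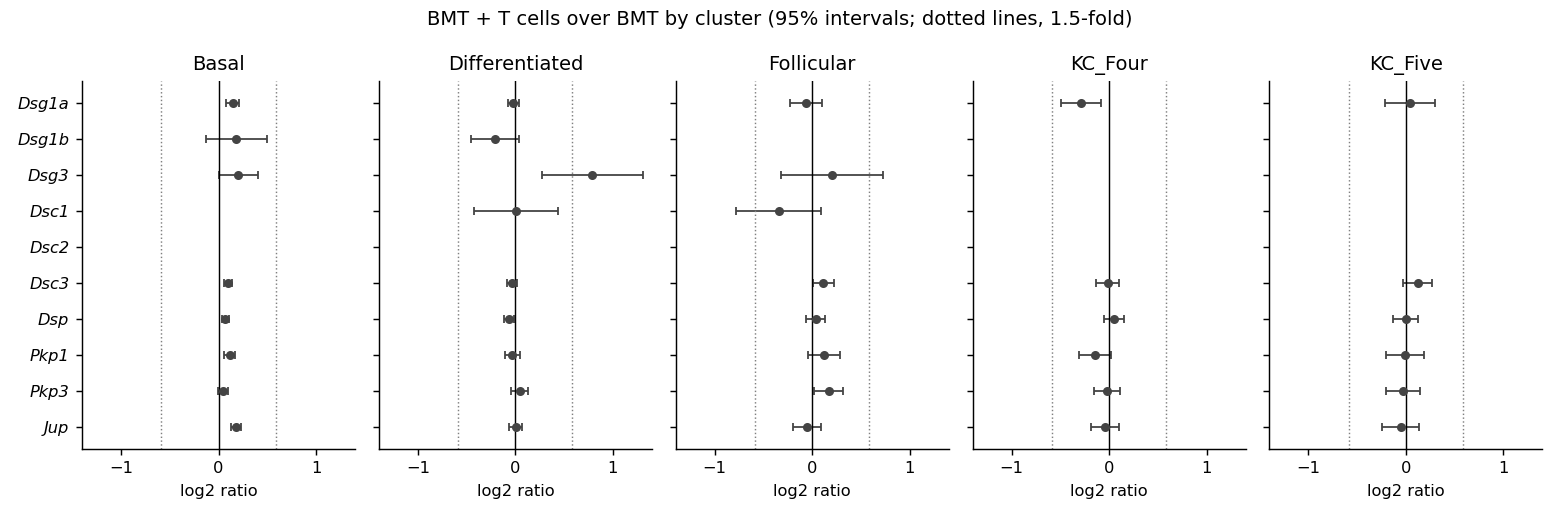
Log2 ratio of BMT + T cells over BMT for each member with at least 50 UMIs in both libraries, by cluster (points with conditional exact 95% intervals, dotted lines at 1.5-fold). Points lie near 0 in all clusters except Dsg3 in Differentiated, at a ratio of 1.72.

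Other genes of the junction behaved in the same mixed way. Of 8 further desmosome genes 6 passed the filter in Differentiated against Basal, where 3.47% of 9758 genes were called higher and 8.35% lower. Dsg1c, the remaining Dsg1 copy (5.72 and 4.39), Perp, a tetraspan protein of desmosomes (2.30 and 2.17), and Evpl (envoplakin, 3.23 and 2.79) were called higher, and Ppl (periplakin) was at 1.81 and 1.72. Dsg2, a desmoglein of lower layers and simple epithelia, was called lower (0.161 and 0.272), and Pkp4 was at 0.397 and 0.569. Dsg2 thus lay on the side of Dsg3, and Dsg1c on that of Dsg1a and Dsg1b. Dsg1c shared 38.8% of its stretches of 31 bases with other desmosome genes, most with Dsg1a, so its separate values are uncertain too. It had 82 and 59 UMIs in all and passed the filter only through its Differentiated UMIs. None of the 6 was called between the labels.

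The adherens junction, the neighbouring cadherin contact tied to actin, was split too. Of 9 genes Nectin4 was called higher in Differentiated (24.6 and 14.4) and Cdh3 (P-cadherin) lower (0.324 and 0.367), while Cdh1 (E-cadherin) was at 1.63 and 1.49. Over all genes compared, 3.47% were called higher there and 8.35% lower. Of 9 tight and gap junction genes 4 passed the filter and Ocln (occludin) was called higher (2.07 and 2.67). Between the labels Cldn4 was called lower in BMT + T cells (0.388) and Gjb2 higher (1.58), against 1.11% and 1.81% of all genes. Of the 314 Gjb2 UMIs in BMT + T cells, 195 came from 1 cell. Cldn4 had 187 and 73 UMIs, 128 and 40 of them in Follicular, with up to 42 and 7 in a cell. Of the factors known to act on desmosome genes, 4 of 8 were called higher in Differentiated, against 3.47% of all genes. They were Grhl1, a grainyhead factor known to act on Dsg1 (4.399 and 4.26), Grhl3 (8.999 and 5.66), Ovol1 (2.86 and 3.77) and Cebpa (3.94 and 3.82). Klf4 was at 1.87 and 1.65, and Trp63, the master factor of stratified epithelium, at 0.837 and 0.801. In KC_Four, Grhl3 and Ovol1 were called lower than in Basal, against 3.64% of all genes.

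Corneodesmosomes, the altered desmosomes of the horny layer, are cut by kallikrein proteases, which Spink5 holds back. Of 8 such genes 4 passed the filter in Differentiated, with Spink5 (9.67 and 13.1) and Klk8 (2.05 and 2.73) called higher, against 3.47% of all genes. In Follicular Spink5 (10.2 and 14.1) and Klk7 (258 and 150) were called higher, against 6.01% of all genes. Between the labels Klk5 (0.421) and Klk7 (0.360) were called lower in BMT + T cells, against 1.11% of all genes. Klk5 had 153 and 65 UMIs in all, from 70 and 44 cells, with up to 36 and 7 in a cell. Of these, 92 and 24 came from 19 and 9 Follicular cells. Klk7 came from fewer cells, with 308 and 89 UMIs in Follicular from 19 and 9 cells, and up to 91 and 37 in a cell. The difference in Klk7 is therefore between a few cells of 1 library and of another.

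The genes whose levels ran most like each member were sought among 7664 genes with at least 500 UMIs, by Pearson's r of log2(UMIs per 10000 + 0.1) over the 10 sums of cluster and library, which share their libraries and clusters. Among them were Mcur1 (0.995) and Dlg2 (0.992) for Dsg1a, Endou (0.989) for Dsg1b, Dynlt3 (0.984) for Dsc3, and Sowahc (0.988) and Tmem40 (0.987) for Dsp. Zfp185 was the first for both Pkp1 (0.993) and Jup (0.990), followed by Ppp2r5a (0.991) and Relch (0.987). Pou3f1 (0.972) and Narf (0.966) were first for Pkp3, and Erbin (0.971) and Mbnl1 (0.952) for Dsg3. Among the 8 members so compared, Dsg1a and Dsc3 were the closest pair (0.991). Dsg3 had negative values with all 7 others, from −0.61 with Jup to −0.32 with Pkp3.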

How the data were processed

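Keratinocytes of 2 libraries (10x Genomics 5′ kit) were analysed. Per the labels and the study's methods the authors processed reads with kallisto, bustools and Seurat on GRCm38, dropped cells under 500 genes or over 20% mitochondrial reads, removed likely doublets with DoubletFinder and clustered with Leiden; the annotation is not given in the sources used here. The deposited expression values are natural logs of 1 plus UMIs per 10000 UMIs of a cell, and the deposited mitochondrial values are in percent. Undoing the log gave whole UMIs for 100% of 15311900 values (tolerance 0.001), so counts were summed per cluster and library. Of the cells, 0 had under 500 genes and 1 had over 20% mitochondrial UMIs. No doublets were sought again. Thinning (seed 1) drew 2500 UMIs per cell without replacement.

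A gene was called between clusters at 2-fold in both libraries, and between labels at 1.5-fold on equal cluster weights, with at least 50 UMIs in each library. Named genes are the 10 members, the lists given in the text and, for each member with 500 UMIs, the 2 genes most like it. Some of these genes are not reported here. Members and lists were chosen with earlier results of these data known. A count of 0 allows 3 UMIs. Coordinates and promoters came from RefSeq (GRCm38.p6) and shared 31-base stretches from GENCODE M39 transcripts. The scripts were tested on simulated data. Scripts ran in Python 3.11.15 with pandas 2.3.3, SciPy 1.17.1, matplotlib 3.10.9 and NumPy 2.4.6.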

Additional observations from a re-analysis of the deposited data

Results flagged for a closer look

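In 2 genes the ratio of BMT + T cells to BMT went opposite ways in different clusters, with intervals on opposite sides of 1. Dsg1a was at 1.105 in Basal and 0.820 (0.710–0.945) in KC_Four, where it had 536 and 305 UMIs. Dsp was at 1.05 in Basal and 0.953 (0.920–0.988) in Differentiated. The differences between clusters were not tested, since each label has 1 library, and both are small beside the cluster differences of the same genes.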

How the results depend on the processing

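The 5 members called higher in Differentiated became 2 (Dsg1a and Dsg1b) when cells were thinned to 2500 UMIs, against 192 of 7408 genes. Pkp1 and Jup then missed the fold and Dsc1 no longer passed the filter. The Dsc1 call in Follicular was lost in the same way (0 members, against 270 of 7341 genes). It was also lost at a minimum of 200 UMIs (0 members, against 254 of 7054 genes). At a minimum of 10 UMIs, 1 member (Dsc1, on 6 and 7 UMIs) was called higher in KC_Five, against 368 of 11877 genes. In Differentiated by itself, 1 member (Dsg3) was called higher in BMT + T cells, against 80 of 6348 genes. The other counts stayed within 1.5 times their value: the Differentiated count was 4 with the mean over cells, with either reduced scale and at 200 UMIs, 6 with median-of-ratios size factors, and 5 in the rest. With 5 bins in place of 10 along the keratin order, 10 of 19 ratios of last to first bin moved and none reversed. Leaving out the 272 deepest cells changed no count. The 2 settings that leave out cells with other markers or the top 20 genes, and the Krt79 groups, were chosen after seeing the data. No paired analysis was possible because each label has 1 keratinocyte library. Depth limits Dsc2, Dsc1 outside Differentiated and Follicular, and Dsg3.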
